A study of Danio rerio with 6 samples.

Results

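The genes lyz, lcp1 and nccrp1 were followed on 6 single-colour arrays of the zebrafish embryo, 1 array per condition. Members were the probes that the authors' annotation, by accession or description, gave to lysozyme, lymphocyte cytosolic plastin 1 or nonspecific cytotoxic cell receptor protein 1. That took 5 of 14067 zebrafish probes, 1 for lyz, 3 for lcp1 and 1 for nccrp1, or 3 of 3221 named genes that were measured. The genes were selected on their measured signal in sorted cells and whole embryos over the stages, on these same arrays, so those values are given as a description and no test was run on them.

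Whole embryos were taken at 18 and 24 hours post fertilisation (hpf). Another 3 arrays carried RNA of GFP-positive cells, sorted from Tg(Fli1:EGFP) embryos at 18, 24 and 28 hpf. The fli1 reporter marks endothelium, and some blood cells and neural crest as well. The last array carried RNA of sorted Tg(Flk:GRCFP) cells, from a line named for the VEGF receptor gene now called kdrl. Their age is labelled 18 hpf in title and design but 24 hpf in the description. They are treated as 18 hpf cells here, with the later age as an alternative. Fish of all groups were untreated, RNA was amplified in 2 rounds and labelled with Cy3, and the labels do not say how many embryos or sorts made up a sample.

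Lysozyme cuts the cell wall of bacteria, and in the zebrafish embryo the lyz transcript marks neutrophils and, early on, part of the macrophages. L-plastin, the product of lcp1, bundles actin filaments and is used as a marker of all early leukocytes in this animal. NCCRP-1 was described in catfish as a receptor of nonspecific cytotoxic cells, cells likened to natural killer cells, and its mammalian relative is grouped with F-box proteins. The first leukocytes of the zebrafish embryo arise in anterior lateral plate mesoderm, which also gives rise to endothelium.

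No condition had a replicate, so the number of arrays limits the precision and no difference could be set against replicate spread. As a measure of array error near background, the log2 difference of 173 Arabidopsis control spots between 2 arrays had an SD of 0.35 to 0.46 over the 15 pairs of arrays. A probe counted as above background where it was brighter than 95% of these control spots on the same array, which held for 24.7% to 42.6% of probes. The control spots thus lie at the background level, and the error of brighter probes was not measured. A gene was called different at 2-fold or more with its brighter array above background. The call used the log2 difference itself, also where the dimmer value was below background. A called gene can thus have a lower bound under 2-fold, or no bound. All signals below are quantile-normalized log2 values at scan setting 55 unless another scale is named. Arrays differed in strength: the 99th percentile of background-subtracted intensity ran from 3039.2 on the Fli1 array at 18 hpf to 26835 on the whole-embryo array at 18 hpf.

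The 3 genes did not share a course. Signal of lyz was low at 18 hpf and high at 24 hpf in whole embryos and in Fli1 cells alike, and at each of these stages it was higher in the sorted cells. Signal of nccrp1 was higher at 24 than at 18 hpf in both fractions too, but at both stages it was lower in the sorted cells. The brightest lcp1 probe was past the 2-fold limit in Fli1 cells at 18 hpf alone, and under that limit in some scalings, from spots whose unnormalized brightness was nearly the same on all 6 arrays.

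**Figure D1:**
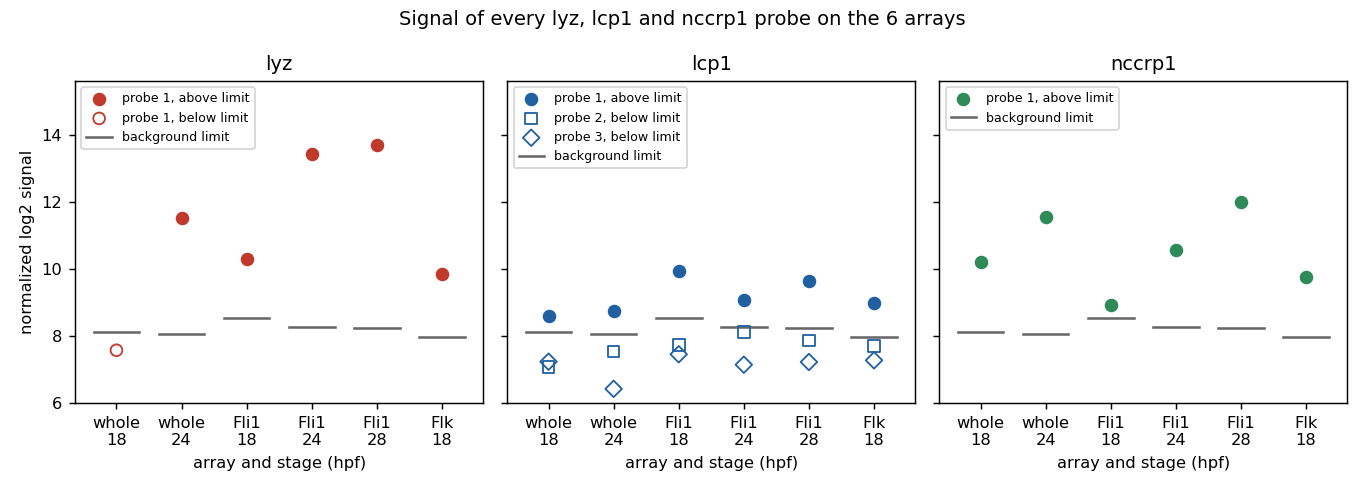
Normalized log2 signal of each probe (vertical axis) on the 6 arrays (horizontal axis, with the stage in hpf), with filled points above the background limit of that array and open points below it. The lyz probe runs from 7.58 to 13.70, the nccrp1 probe from 8.92 to 12.01 and the brightest lcp1 probe from 8.61 to 9.95, and the other lcp1 probes stay under the limit on all 6 arrays.

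The lyz probe had a log2 signal of 7.58 in whole embryos at 18 hpf and 11.53 at 24 hpf. In Fli1 cells it was 10.29 at 18 hpf, 13.44 at 24 hpf and 13.70 at 28 hpf, and in Flk cells it was 9.86. The probe was below the background limit in whole embryos at 18 hpf (limit 8.11) and above it on the other 5 arrays. On the scale of spot minus local background, before normalization, the intensities were 225 and 6032 in whole embryos, 551, 13111 and 4957 in Fli1 cells in order of stage, and 950 in Flk cells. On both scales sorted cells of 18 hpf, of either line, lay below whole embryos of 24 hpf and Fli1 cells of 24 hpf lay above them. Fli1 cells of 28 hpf lay above those whole embryos after normalization and below them before it.

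Against whole embryos of the same stage, lyz was at least 4.53-fold higher in Fli1 cells at 18 hpf, at least 3.37-fold higher in Flk cells and 3.77-fold higher in Fli1 cells at 24 hpf. The folds at 18 hpf are lower bounds, because the probe was not measurable in the whole embryos, whose detection limit was used in its place. At 24 hpf, where both arrays measured it, the log2 difference was 1.92, or 5.5 control-spot SDs, and it ran from 1.61 to 1.87 over 5 other settings. At 18 hpf the log2 differences from the unmeasured whole-embryo value, 2.71 for Fli1 and 2.28 for Flk cells, have no exact meaning, and under the same settings they were positive and past 2-fold (2.04 to 3.03 and 1.66 to 2.51). Of 6017 genes and unnamed probes, 9.87% were called higher in Fli1 cells at 18 hpf, 4.39% at 24 hpf and 6.88% in Flk cells, and at 24 hpf 46 of them were as far up as lyz, itself included. Since lyz was chosen for this pattern, that rank places it among the other genes and adds no support. If the Flk cells were of 24 hpf, as the sample description has it, lyz would be lower in them than in whole embryos by a log2 difference of -1.67. Fewer cells with the transcript and less transcript per cell cannot be told apart in bulk RNA.

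With stage, lyz was 8.91-fold higher in Fli1 cells at 24 than at 18 hpf, and at least 10.7-fold higher in whole embryos at 24 than at 18 hpf. The log2 difference in Fli1 cells was 3.16 and ran from 2.92 to 4.20 over the 5 other settings, with 5 of 6017 features as far up, lyz included. In Fli1 cells 4.97% of features were called higher and 3.74% lower over this step, and in whole embryos 5.52% and 3.99%. The whole-embryo step has no exact size or rank, since the earlier value was below background. From 24 to 28 hpf the direction hung on the scaling. The log2 difference was 0.26 after quantile normalization, within the control-spot SD of 0.36, but -1.17 when arrays were scaled at the 75th percentile and -1.12 on the authors' scaled values. The brightest probes of the Fli1 array at 28 hpf were dimmer than at 24 hpf, with a 99th percentile of 3357 against 10112, while the median spot intensity was 242 against 232. The part of this difference in the lyz step was not tested.

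In the order of normalized levels, lyz ran from Fli1 cells at 28 hpf over Fli1 cells at 24 hpf, whole embryos at 24 hpf, Fli1 cells at 18 hpf and Flk cells down to whole embryos at 18 hpf. The first step of that order, 0.26, was within the control-spot SD, and the step from Fli1 to Flk cells, 0.43, was hardly above its SD of 0.42. That last difference, Flk minus Fli1, was -0.43 and turned to 0.05 when arrays were scaled at the 75th percentile and to 0.16 on the authors' scaled values. The steps from Fli1 cells at 24 hpf to whole embryos at 24 hpf and on to Fli1 cells at 18 hpf were 1.92 and 1.24, and the last one ended below background.

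The ratios in the authors' deposited table divide scaled intensities by the whole-embryo array at 18 hpf or by the mean of both whole-embryo arrays. There the choice of denominator turned lyz around for the sorted cells of 18 hpf, of either line. Per the authors' deposited table, lyz in Fli1 cells at 18 hpf stood at 5.11 times the 18 hpf whole embryo and at 0.322 times the mean of the whole-embryo arrays. For Flk cells the authors' deposited table gave 5.7 and 0.359. Fli1 cells of the later stages lay above the whole embryos with either denominator. By the authors' deposited table their ratios were 94 and 5.92 at 24 hpf, and 43.1 and 2.72 at 28 hpf. The whole-embryo arrays themselves differed 30.8-fold for lyz, as the authors' deposited table has it. Ratios over the 18 hpf whole embryo rest on a lyz signal below the background limit used here, so they have no exact size.

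**Figure D2:**
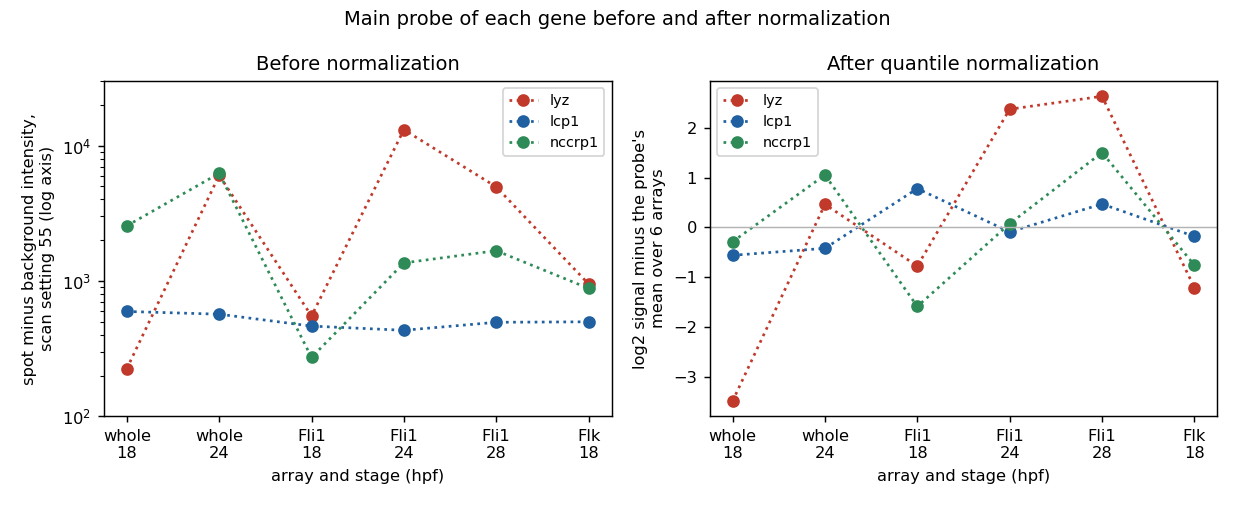
The brightest probe of each gene on the 6 arrays, as spot minus background intensity at scan setting 55 on a log axis (left) and as quantile-normalized log2 signal minus the probe's mean over the arrays (right). Before normalization lcp1 stays between 432 and 595 while lyz runs from 225 to 13111 and nccrp1 from 272 to 6241.

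For lcp1, the brightest probe had log2 signals of 8.61 and 8.75 in whole embryos at 18 and 24 hpf, 9.95, 9.08 and 9.64 in Fli1 cells in order of stage, and 8.99 in Flk cells, above background on all 6 arrays. Its spot minus background intensity was 595, 568, 464, 432, 495 and 499 in that order. The spots of the sorted cells were thus slightly dimmer than those of the whole embryos, and the order turned only when arrays were scaled to each other. In Fli1 cells at 18 hpf lcp1 was 2.53-fold higher than in whole embryos, a log2 difference of 1.34. Scaling at the 75th percentile gave 0.95 for the same difference and the authors' scaled intensity gave 0.84, both under 2-fold, and no setting changed its sign. The corresponding folds were 1.26 at 24 hpf and 1.3 for Flk cells, log2 differences of 0.33 and 0.37 against control-spot SDs of 0.35 and 0.36.

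Over the stages lcp1 was not called in any direction. Fli1 cells at 24 hpf were 1.83-fold lower than at 18 hpf, Fli1 cells at 28 hpf were 1.48-fold higher than at 24 hpf, and whole embryos at 24 hpf were 1.1-fold higher than at 18 hpf. In the order of levels, Fli1 cells at 18 and 28 hpf came first and did not differ beyond the control-spot SD (0.31 against 0.40), and a step of 0.56 led to Fli1 cells at 24 hpf. From there on, none of the steps between Fli1 cells at 24 hpf, Flk cells and the whole-embryo arrays passed its SD.

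The course of lcp1 was shared by many genes. Of 1575 named genes above background on at least 3 arrays and ranging over 1 log2 unit or more, 117 lay within a root mean square difference of 0.25 of the mean-centred lcp1 profile over the 6 arrays, while none lay that near to lyz or nccrp1. The limit of 0.25 was chosen after these distances were seen. The lcp1 signal ranged over 1.34 log2 units, that of lyz over 6.12 and that of nccrp1 over 3.09. The lowest lyz value was below background, so its range has no exact size. A fixed limit is met more easily where the range is small, so these counts do not rank the courses by how common they are. The named genes nearest to lcp1 were etv5b, an ETS transcription factor (0.05), rab34a, a small GTPase (0.08), the kinase subunit gene camk2d1 (0.08), the muscle myosin light chain gene myl1 (0.08) and khdc4 (0.08), none of which is on the leukocyte lists.

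The other lcp1 probes gave no measured level. The second is the only lcp1 probe that was named directly through RefSeq. The brightest and the third were named by description and share a database entry, yet only the brightest was measured. The second probe ran from 7.08 to 8.12 and the third from 6.43 to 7.46, both below the background limit on all 6 arrays, so no fold is given. Their values in Fli1 cells stood above those in whole embryos of the same stage, by 0.66 and 0.58 for the second probe and by 0.22 and 0.71 for the third, but a value below background has no firm order. On the other stage steps they went apart: from 18 to 24 hpf in whole embryos the second probe differed by 0.46 and the third by -0.81. The plastin relatives pls1 and pls3 were on the array as well. The pls3 probe with the highest signal had 9.74 and 9.36 in whole embryos, 7.99, 8.27 and 7.78 in Fli1 cells and 8.88 in Flk cells, highest in whole embryos. Its values in Fli1 cells at 18 and 28 hpf were below the background limits of 8.55 and 8.25. Of the other pls3 probes, 1 was above background on 1 array and the other on none. The brighter pls1 probe ran from 8.62 to 10.07 with its highest value in Fli1 cells at 28 hpf.

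For nccrp1, log2 signals were 10.22 and 11.56 in whole embryos at 18 and 24 hpf, 8.92, 10.58 and 12.01 in Fli1 cells in order of stage, and 9.75 in Flk cells, above background on all 6 arrays. Spot minus background intensities were 2555 and 6241 in whole embryos, 272, 1359 and 1673 in Fli1 cells, and 882 in Flk cells. At matched stages the whole embryos were brighter in each case. Relative to them, the nccrp1 signal of Fli1 cells was 2.46-fold lower at the earlier stage and 1.97-fold lower, just short of a call, at the later one, and that of Flk cells was 1.38-fold lower, where 13.0%, 7.74% and 6.70% of all features were called lower. The log2 differences were -1.30, -0.98 and -0.47. Under the 5 other settings they ran from -2.20 to -1.08, from -1.63 to -0.93 and from -0.93 to -0.35, with no change of sign. With the Flk cells taken as 24 hpf, their log2 difference from whole embryos was -1.81, past 2-fold.

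With stage, nccrp1 was 3.17-fold higher in Fli1 cells at 24 than at 18 hpf and 2.54-fold higher in whole embryos, on log2 differences of 1.66 and 1.35 that stayed at 1.43 to 2.07 and 1.25 to 1.50 under the other settings. From 24 to 28 hpf it was 2.69-fold higher in Fli1 cells, where 7.99% of features were called higher and 9.94% lower, but the log2 difference of 1.43 was only 0.51 when arrays were scaled at the 75th percentile and 0.49 on the authors' scaled values. Flk cells were 1.78-fold above Fli1 cells of 18 hpf, under the limit that 5.50% of features passed upwards and 3.62% downwards. This log2 difference of 0.83 turned to -0.83 when the Flk cells were taken as 24 hpf and set against Fli1 cells of that age. In the order of levels, Fli1 cells at 28 hpf and whole embryos at 24 hpf were within the control-spot SD of each other (0.45), as were Fli1 cells at 24 hpf and whole embryos at 18 hpf (0.37 against 0.39). Flk cells came next and Fli1 cells at 18 hpf last.

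The named genes nearest to nccrp1 were the fast muscle myosin light chain gene mylpfa (root mean square difference 0.52), the ubiquitin-conjugating enzyme gene ube2g2 (0.57), the phosphatase gene pgp (0.60), the arginine methyltransferase gene carm1 (0.64) and mab21l1 (0.65). None is on the leukocyte lists. Markers of skin, many but not all of which were also lower in sorted cells, are given here because those moved the same way in the comparisons with whole embryos. Of 15 measured epidermis and periderm genes, 7 were called lower in Fli1 cells at 18 hpf, 10 at 24 hpf and 7 in Flk cells, with 1 called higher each time. Over all features 13.0%, 7.74% and 6.70% were called lower, and 9.87%, 4.39% and 6.88% higher. The median log2 differences of the skin genes were -0.86, -1.65 and -0.99, against 0.02, 0.13 and 0.05 over all features. Over the stage steps the medians of the skin genes were 0.01 for Fli1 cells at 24 over 18 hpf, -0.13 at 28 over 24 hpf and 0.09 for whole embryos. Single skin genes went both ways, with 1, 2 and 3 of the 15 called higher and 2, 4 and 2 lower. All features had 4.97%, 7.99% and 5.52% higher and 3.74%, 9.94% and 3.99% lower. In whole embryos the skin genes ran from -2.90 (krt18a.1) to 3.72 (icn). The nccrp1 differences over the same steps were 1.66, 1.43 and 1.35. The part of the skin genes in the nccrp1 values was not tested.

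**Figure D3:**
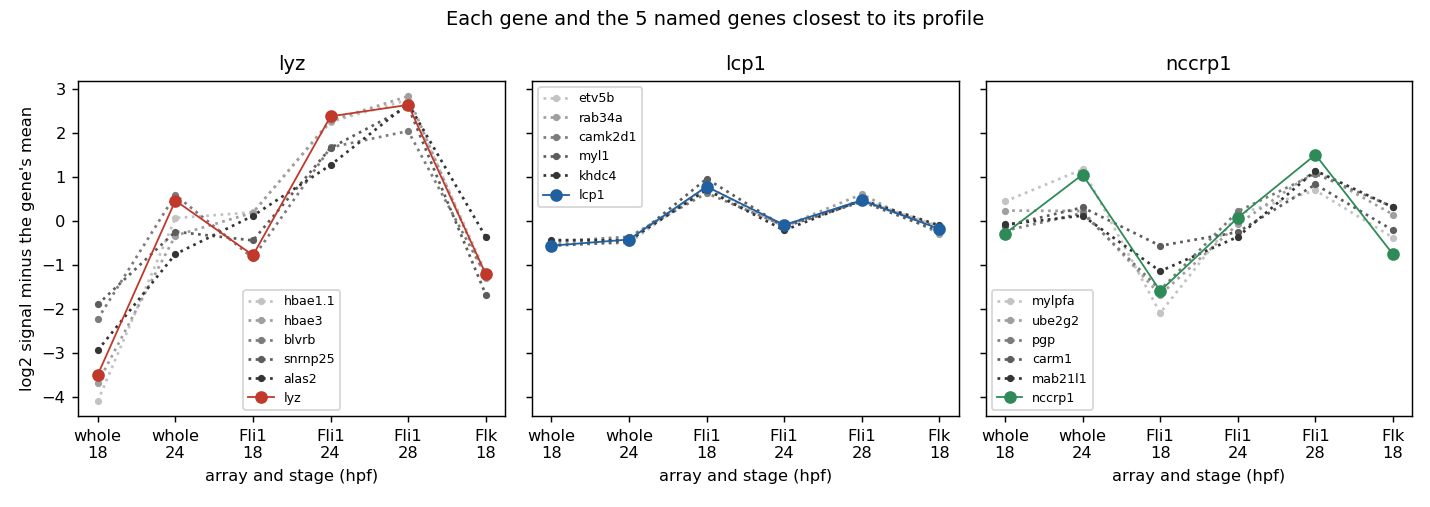
Log2 signal minus each gene's mean over the 6 arrays, for lyz, lcp1 and nccrp1 (coloured) and the 5 named genes closest to each (grey). The grey lines lie on lcp1 to within 0.08 and stand 0.50 to 0.87 from lyz and 0.52 to 0.65 from nccrp1, as root mean square differences.

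Nearest to lyz were mostly genes of red blood cells. The embryonic alpha globin genes hbae1.1 and hbae3 came first (0.50 and 0.53), followed by blvrb, a biliverdin reductase (0.64), above background on 3 of 6 arrays. The splicing factor gene snrnp25 (0.80) and alas2, the first enzyme of heme synthesis in red cells (0.87), came next. These distances include the lyz value of whole embryos at 18 hpf, which was below background, so they have no exact size. The globin hbae1.1 had log2 signals of 8.60 and 12.75 in whole embryos, 12.88, 14.93 and 15.43 in Fli1 cells and 11.51 in Flk cells, so that, like lyz, it was lowest in whole embryos at 18 hpf and highest in Fli1 cells at 24 and 28 hpf. Of 12 measured erythroid genes 6 were called higher in Fli1 cells at 18 hpf, 9 at 24 hpf and 6 in Flk cells, none lower. The shares of all features called higher were 9.87%, 4.39% and 6.88%. For the comparisons at 18 hpf the erythroid medians were 1.47 and 1.27, against 0.02 and 0.05 over all features. At 24 hpf the erythroid count hung on the setting, with 6 called higher without background correction and 5 at scan setting 45. The erythroid median at 24 hpf ran from 0.96 to 1.35 over the 5 other settings. The part of the erythroid genes in the lyz values was not tested.

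**Figure D4:**
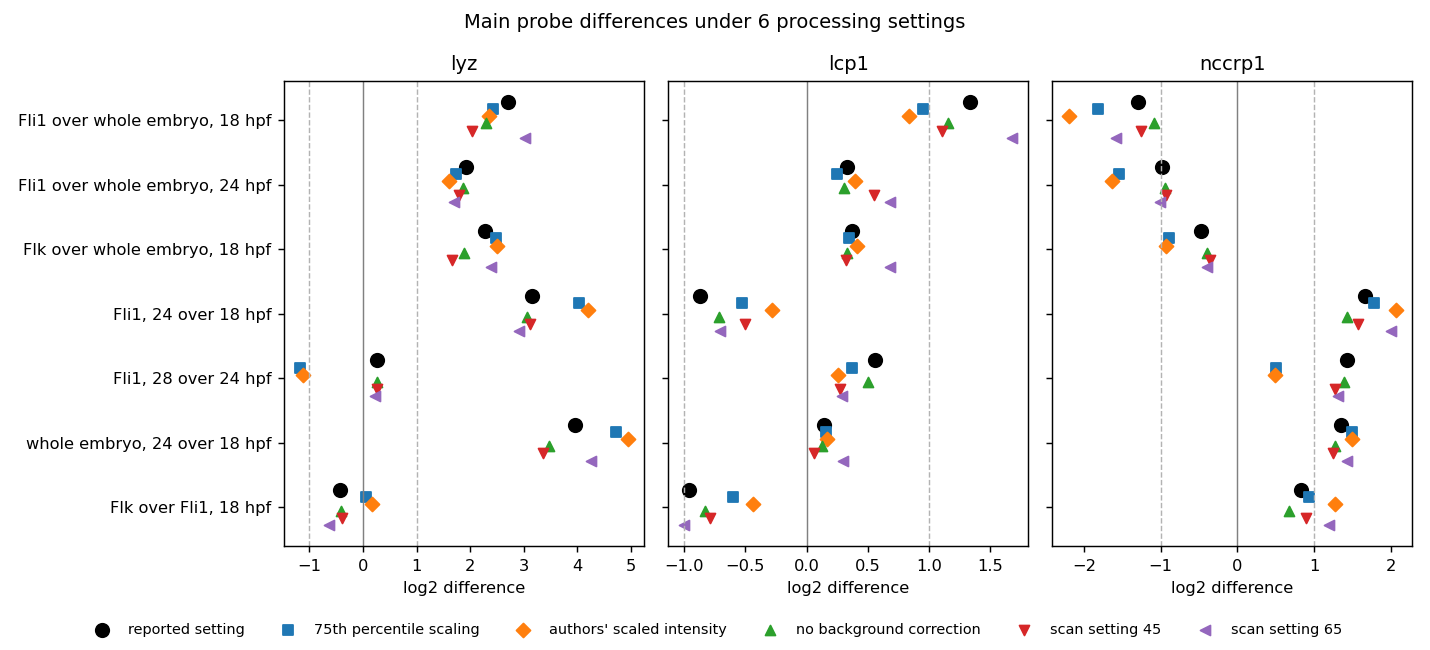
Log2 difference of the brightest probe of each gene (horizontal axis) in 7 comparisons (vertical axis) under the reported setting and 5 others, with dashed lines at the 2-fold limit. Points of lyz and nccrp1 keep their side of 0 in the comparisons with whole embryos, and the step of lyz from 24 to 28 hpf runs from -1.17 to 0.27.

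Genes of the leukocyte lists did not follow lyz as a group. Some of them are used in other tissues as well, such as lmo2 and gata3. Of 122 further genes on 5 leukocyte lists, 55 were on the array and 35 were above background on at least 1 array. In Fli1 cells at 18 hpf 2 of the 35 were called higher (5.71%) and 4 lower (11.4%), and their median log2 difference was -0.13. At 24 hpf 2 were higher and 1 lower (median 0.22), and in Flk cells 3 were higher and 4 lower (median -0.08). Over all features 9.87% were higher and 13.0% lower in Fli1 cells at 18 hpf. Counts of 2 and 4 among 35 genes cannot be told from those shares. The lists had 5.71% higher and 2.86% lower at 24 hpf, beside 4.39% and 7.74%, and 8.57% higher and 11.4% lower in Flk cells, beside 6.88% and 6.70%. Medians over all features were 0.02, 0.13 and 0.05. For lyz, lcp1 and nccrp1 together, 2 genes were called higher and 1 lower at 18 hpf (median 1.34), and 1 higher at 24 hpf (0.33) and in Flk cells (0.37), with none lower there. From 18 to 24 hpf in Fli1 cells, 5.71% of the list genes were called higher and none lower (median 0.12), beside 4.97% and 3.74% of all features. In whole embryos 2.86% were higher and 5.71% lower over that step (median -0.21), beside 5.52% and 3.99%.

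Among macrophage and antigen presentation genes, 12 were measured. The closest to lyz in direction was mfap4.1, a macrophage marker of zebrafish, with log2 signals of 9.24 and 10.33 in whole embryos, 10.98, 11.12 and 12.47 in Fli1 cells and 10.38 in Flk cells. It was lowest in whole embryos at 18 hpf and highest in Fli1 cells at 28 hpf. The rise of mfap4.1 over whole embryos was 3.35-fold in Fli1 cells and 2.21-fold in Flk cells at 18 hpf, and at 24 hpf the fold was 1.73, not called. Its log2 difference of 1.75 at 18 hpf was 0.72 with the authors' scaled intensity, and that of 1.14 in Flk cells was 0.98 under 75th percentile scaling. The MHC light chain gene b2m was called higher at 24 hpf, at least 1.36-fold, from a whole-embryo signal below background, and fell short of 2-fold at scan setting 45 (0.96).

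Of the 12 genes on the same list, 3 were called lower in Fli1 cells at 18 hpf, 1 at 24 hpf and 4 in Flk cells. On each occasion 1 was called higher. Over all features 13.0%, 7.74% and 6.70% were called lower and 9.87%, 4.39% and 6.88% higher. Cathepsins, lysosomal proteases, were not a list of their own. Of the 4 measured, 3 were called lower at 18 hpf in Fli1 and in Flk cells, and ctsba alone at 24 hpf. The cathepsin gene ctsla had log2 differences of 0.21, -0.23 and -0.08 and was not called. Cathepsin B, ctsba, had 12.61 and 12.56 in whole embryos and 9.82, 10.94, 9.75 and 9.69 in the sorted cells, a deficit of 6.9-fold for Fli1 cells at 18 hpf, 3.06-fold at 24 hpf and 7.58-fold for Flk cells. Each sorted array lay below both whole-embryo arrays, though the arrays differ in stage and line. The share of all features separated this way was not counted. Cathepsin C, ctsc, was at least 4.8-fold lower in Fli1 cells and at least 7.15-fold lower in Flk cells at 18 hpf, with a single bright array, the whole embryo at 18 hpf (10.81). The cathepsin S gene ctss2.1 was called lower at 18 hpf in Fli1 cells (at least 2.35-fold) and Flk cells (2.39-fold), and the granulin gene grna.2 in Flk cells (2.01-fold), a log2 difference of -1.01 that was -0.69 at scan setting 45.

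Neutrophil genes other than lyz were hardly measured. The myeloid peroxidase gene mpx had log2 signals of 8.32 and 8.55 in whole embryos, 9.03, 8.96 and 9.66 in Fli1 cells and 8.86 in Flk cells. The sorted arrays all stood above both whole-embryo arrays, though the arrays differ in stage and line. How many features of the array stand this way was not counted. At matched stages the mpx differences were less than 2-fold (0.71, 0.41 and 0.54). The array held 4 mpx probes, and only the brightest is given here. The gelatinase gene mmp9 and the mast cell protease gene cpa5 were the other measured members and were not called, and npsn and serpinb1l1 were below background on all 6 arrays.

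The myeloid master regulator spi1b was below background in whole embryos at 24 hpf and above it on the other 5 arrays, with 8.17 and 8.02 in whole embryos, 8.73, 8.74 and 8.64 in Fli1 cells and 8.83 in Flk cells. It was higher in the sorted cells by 0.55, 0.72 and 0.66, under 2-fold in each. Of the 10 measured transcription factors on its list, lmo2, needed in blood and endothelium, was 2.79-fold higher in the Fli1 cells of 18 hpf and 2.21-fold in the Flk cells, while cebpg was at least 1.78-fold lower in Fli1 cells at 18 hpf. The log2 difference of lmo2 in Fli1 cells, 1.48, was as low as 0.76 under the other settings, that in Flk cells, 1.14, as low as 0.95, and that of cebpg, -1.05, was -0.86 without background correction. At scan setting 45 cebpg was not called either. Below background on all 6 arrays were irf8, cebpa, cebp1, cebpd, ikzf1, runx3 and stat3.

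None of the 8 measured genes of leukocyte cytoskeleton and signalling was called in Fli1 cells at 18 or 24 hpf or in Flk cells. Over all features 9.87%, 4.39% and 6.88% were called higher and 13.0%, 7.74% and 6.70% lower. With only 8 genes, the absence of calls cannot be told from those shares. Among them rac2 was above background in Fli1 cells at 28 hpf alone, so it could not be called here. The actin-binding coronin gene coro1a had 9.98 and 9.75 in whole embryos, 9.23, 9.99 and 9.19 in Fli1 cells and 9.66 in Flk cells. Its groups overlapped. Under 75th percentile scaling 3 of the 8 were called lower in Fli1 cells at 18 hpf. That scaling called 1045 of all 6017 features lower there, against 783 in the reported setting. Of lymphoid genes only zap70, a T cell kinase, and gata3 were measured, and gata3, which many embryonic tissues also use, was called higher in Fli1 cells at 24 hpf (2.04-fold) and in Flk cells (5.67-fold). The call of gata3 at 24 hpf ended without background correction (0.93), under 75th percentile scaling (0.97) and at scan setting 45 (0.97). The recombinase genes rag1 and rag2 were below background on all 6 arrays.

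**Figure D5:**
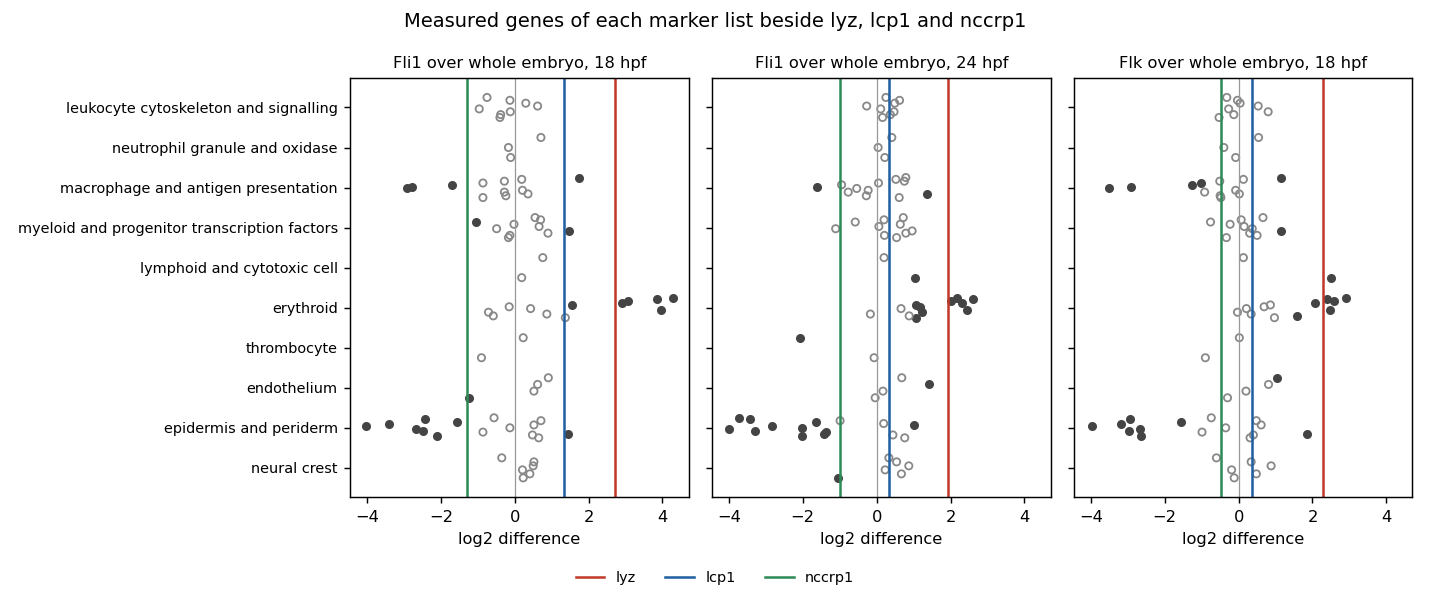
Log2 differences (horizontal axis) of the measured genes of each marker list (vertical axis) in the 3 comparisons of sorted cells with whole embryos, filled where called and open where not, with lyz, lcp1 and nccrp1 as coloured lines. The lyz line lies among the called erythroid genes. The nccrp1 line lies on the negative side, as do all called epidermal genes but 1 in each comparison, and some called genes of the macrophage list. Epidermal genes that were not called lie on both sides.

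The sorted cells were checked against markers of the reporters' target tissue. Of 7 endothelial genes on the array 4 were measured, and kdrl, the VEGF receptor, had folds of 1.88 and 1.6 in Fli1 cells at 18 and 24 hpf, under the limit, and was called higher, 2.04-fold, in Flk cells, a log2 difference of 1.03 that fell short of 2-fold without background correction (0.88) and at scan setting 45 (0.75). The angiopoietin receptor gene tek was 2.7-fold higher in Fli1 cells at 24 hpf. The endothelial factor gene ets1 was above background in whole embryos at 18 hpf alone and was called lower in Fli1 cells of that stage, with no bound on the fold and a log2 difference of -1.25 that was -0.67 at scan setting 45. The ets1 call was also lost without background correction and under 75th percentile scaling. The reporter's own gene fli1 was above background in Flk cells alone. Neural crest genes, another cell type under the fli1 reporter, had 6 measured members. None of them was called at 18 hpf in either line. At 24 hpf 1, dct, was called lower, a call lost without background correction and at scan setting 45 (-0.74). With 6 genes these counts cannot be told from the shares of all features given above.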

How the data were processed

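The members and lists were chosen with earlier results of these data known. Each scanner file holds, per the file headers, spot intensity and local background intensity at scan settings 45, 55 and 65, a flag score per spot (codes not explained), and the authors' joined, background-subtracted intensity, also divided by 1 number per array. The deposited value table equals that scaled intensity to within 4.3e-07. The authors' deposited table of ratios was used for the probe annotation and the quoted ratios. Scanner, image software and probe sequences are not given in the sources used here. RNA was amplified and Cy3-labelled with the AmpTec ExpressArt Nano kit, per the labels' protocols.

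Intensities at setting 55 were corrected with normexp (offset 50) on all 14784 spots, 68 flagged zebrafish probes were left out, and 13999 probes were quantile normalized with limma 3.58.1 under R 4.3.3. The steps were tested on simulated arrays that differed by a constant factor, with balanced changes up and down. That test does not cover arrays whose bright probes differ in strength more than their medians, so it cannot judge the dependence on scaling. Saturated spots were kept. Probes were named through RefSeq gene tables (GRCz12tu, names only): 8375 of 14067 had a symbol. Several probes of a gene were reduced to the one brightest on average, which left 6017 genes and unnamed probes that passed the background limit on 1 or more arrays. Where the dimmer side was below background, a fold is a lower bound against the lowest signal above background on that array. All member probes are named, with the 5 nearest genes per member, plastin, lysozyme and F-box relatives that the array held, and up to 6 called genes per list. Lists with 5 or fewer measured genes, and mpx, spi1b, coro1a and genes below background, were named after their values were seen. Alternatives were other scalings, scan settings, background and probe rules.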

Additional observations from a re-analysis of the deposited data

How the results depend on the processing

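No paired analysis was possible because each condition had 1 array and the labels number no replicates. Values were compared with the SD of control spots between the same arrays. Of 51 medians over the 3 genes recomputed under other settings, 41 moved by less than that SD and 10 moved by more, and none that was 2-fold changed sign. With the authors' scaled intensity the median was 0.84 in place of 1.34 for Fli1 cells over whole embryos at 18 hpf, 2.07 in place of 1.66 for Fli1 cells at 24 over 18 hpf, and 0.16 in place of -0.43 for Flk over Fli1 cells, which 75th percentile scaling put at 0.05. With the mean over probes of a gene, the first of these was 0.74. At scan setting 65 the median for Fli1 cells over whole embryos at 24 hpf was 0.68 in place of 0.33. With only genes above background on both arrays, which leaves out lyz in these comparisons, the medians were 0.02 for Fli1 and -0.05 for Flk cells over whole embryos at 18 hpf, and 0.74 in place of 1.35 for whole embryos at 24 over 18 hpf. With the Flk cells taken as 24 hpf, their median against whole embryos was -1.67 in place of 0.37, and that of lyz alone turned from 2.28 to -1.67. Among 185 recomputed probe values it was the only called one to change sign, and 138 moved by less than the SD. Called features at 18 hpf in Fli1 cells were higher in 43.1% of cases, in 24.5% under 75th percentile scaling and in 13.7% with the authors' scaled intensity, whose median over all features was -0.21. The same share went from 36.2% to 29.2% and 23.6% at 24 hpf, from 50.7% to 37.7% and 34.5% for Flk cells over whole embryos, from 57.1% to 81.4% and 84.7% for Fli1 cells at 24 over 18 hpf, from 44.6% to 21.2% and 24.4% at 28 over 24 hpf, and from 60.3% to 80.7% and 88.6% for Flk over Fli1 cells, where the authors' scaling had a median of 0.18. Counts of called features moved by over 1.5 times, for example from 594 higher and 783 lower in Fli1 cells at 18 hpf to 225 and 1423 with the authors' scaled intensity. The causes were not tested. Signal over background limits lcp1, with 1 of 3 probes measured, and lyz in whole embryos at 18 hpf.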
